A study of Homo sapiens with 6 samples.

Results

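The genes described here are 10 markers by which epithelial and mesenchymal cells are told apart. They are the keratins KRT7, KRT8, KRT18 and KRT19, the cadherins CDH1 and CDH2, the adhesion molecule EPCAM, the intermediate filament protein VIM, the matrix protein FN1 and the transcription factor SNAI2. They were chosen by name, as the genes whose symbol in the deposited tables equals one of these, and all 10 were found among the 29845 genes of the count table. Polyadenylated RNA was sequenced in 6 bulk libraries of A549, a cell line established from a human lung carcinoma of epithelial origin. In 3 control libraries the cells had received the empty pIRES-hrGFP-1a vector, and in 3 libraries labelled TFAM-OE they had received the same vector carrying the cDNA of TFAM, the mitochondrial transcription factor A, with a FLAG tag. Both were introduced with Lipofectamine, a lipid reagent with which not every cell takes up the plasmid. Library totals for control replicates 1, 2 and 3 were 32430766, 26650854 and 37321956 counted reads, against 33579510, 36958682 and 28735164 for the corresponding TFAM-OE numbers.

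Epithelial cells are held in sheets by cadherin junctions, tight junctions and desmosomes, and their keratin filaments are built from pairs of a type I chain (such as KRT18 and KRT19) and a type II chain (such as KRT7 and KRT8). Cells in a mesenchymal state rely on VIM filaments, CDH2 and a matrix rich in FN1, and transcription factors of the SNAI and ZEB families repress epithelial genes by binding E-boxes, short motifs in promoters. Carcinoma lines such as A549 can carry markers of both states at once.

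TFAM itself was examined first, since the groups are named for it. It was counted with 2555, 1878 and 2663 reads among the controls, against 2291, 2808 and 2492 among the libraries labelled TFAM-OE. After scaling for library size and composition (CPM, the count per 1000000 reads of the TMM-scaled library) the control libraries held 76.1, 70.2 and 72.7 CPM and the libraries labelled TFAM-OE 71.9, 77.3 and 83.0 CPM, so the groups overlapped. The fold change was 1.06 with a 95% interval from 0.914 to 1.23 (adjusted p = 0.623, edgeR's quasi-likelihood test with Benjamini-Hochberg adjustment over all genes tested). It is not known whether reads of the plasmid cDNA were counted on the gene. Because the counts on the target were not measurably higher, the groups are called by their labels throughout. These counts do not measure the protein, which the paper examined by western blot against the FLAG tag and reports as overexpressed.

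The members spanned a wide range of levels per length, here as FPKM (fragments scaled to transcript length and library size, mean of the 6 libraries). KRT7 was the highest at 1367 FPKM and ranked 37 among 29656 genes. VIM followed at 826 FPKM (rank 65), then KRT8 at 696 FPKM (rank 80) and KRT18 at 517 FPKM (rank 106). These 4 abundant filament genes, 3 keratins and VIM, kept this order in each of the 6 libraries. KRT19 lay lower at 86.9 FPKM (rank 633), FN1 at 14.2 FPKM (rank 3706) and CDH2 at 8.98 FPKM (rank 5028). SNAI2 was at 2.38 FPKM (rank 9379), and the junction markers of epithelia were the lowest, CDH1 at 0.842 FPKM (rank 12349) and EPCAM at 0.273 FPKM (rank 15425). FN1 and CDH2 were neighbours whose libraries overlapped, with FN1 between 9.32 and 20.7 FPKM and CDH2 between 7.45 and 11 FPKM, whereas the ranges of EPCAM (0.14 to 0.47 FPKM) and CDH1 (0.61 to 1.48 FPKM) did not meet. The cells therefore carried abundant transcripts of simple epithelial keratins together with abundant VIM, with little CDH1 or EPCAM mRNA.

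**Figure D1:**
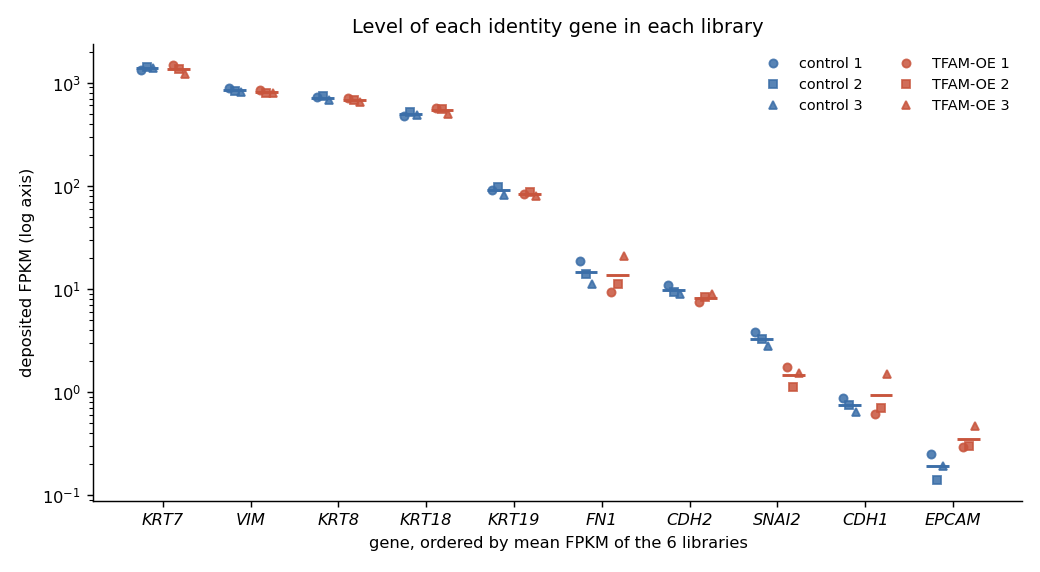
FPKM of the 10 genes on a log axis, with 1 point per library, control in blue, TFAM-OE in red, marker shapes for replicate numbers and short lines for group means. The keratins and VIM sit far above CDH1 and EPCAM. In the plotted FPKM only SNAI2 and EPCAM have groups that do not overlap, and CDH2 joins them only when scaled as CPM.

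Marker genes of lung lineages were read to check the label of the cells. Of 10 alveolar type 2 markers 7 had a read, and their summed level lay between 12.5 and 13.3 FPKM among the controls, against 10.4 to 11.7 FPKM among the libraries labelled TFAM-OE, most of it ABCA3 (10.5 FPKM on average), the lipid transporter of lamellar bodies. ABCA3 itself averaged 10.46 FPKM in the control and 10.45 FPKM in the libraries labelled TFAM-OE. LAMP3 averaged 1.56 against 0.203 FPKM, and NAPSA, named after its values were seen, 0.797 against 0.470 FPKM. The other markers of this list with a read averaged at most 0.1 FPKM in either group. The surfactant genes SFTPB and SFTPC and the lung regulator NKX2-1 were at most at 0.1 FPKM in every library. The alveolar type 1 markers summed to between 125 and 140 FPKM among the controls and between 106 and 114 FPKM among the libraries labelled TFAM-OE, and CAV1, a gene of many cell types, made up 119 FPKM on average. Neither sum overlapped between the groups, nor did those of the fibroblast and immune markers given below. A single gene made up most of each later sum, THY1 (2.16 FPKM on average) for fibroblasts and CD68 (1.05 FPKM) for immune cells. Of all single genes tested, 31.7% had groups without overlap in CPM. Whether the make-up of the cultures bears on the member genes was not tested. The airway markers summed to at most 1.67 FPKM, the fibroblast markers to between 2.39 and 2.56 FPKM among the controls, against 2.83 to 3.31 FPKM among the libraries labelled TFAM-OE, the endothelial markers to at most 0.1 FPKM and the immune markers to between 1.42 and 1.67 FPKM among the controls, against 0.49 to 0.81 FPKM among the libraries labelled TFAM-OE. COL3A1, PDGFRA and PDGFRB of the fibroblast list and LYZ of the immune list were at most at 0.1 FPKM in every library, and DCN and PTPRC, which have no FPKM value, had at most 1 read in a library. These marker genes without a call of their own were named to show which defining markers are near 0.

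Only SNAI2 among the 10 members differed between the groups at an adjusted p below 0.05, and it was lower in the libraries labelled TFAM-OE. That is 10% of the members, beside 8.29% of all 16555 genes tested, 3.48% higher and 4.81% lower, so the share is near the background. No member was called higher by edgeR's quasi-likelihood test (0 of 10). At an unadjusted p below 0.05, 1 was higher and 1 lower, beside 12.2% higher and 13.2% lower of all genes tested. DESeq2, limma-voom and edgeR's exact test also called 0 members higher and 1 lower. Of the 16555 genes, these tools called 934, 565 and 980 higher and 1106, 775 and 1236 lower. The same backgrounds apply to the unadjusted and other-tool counts of the gene lists below. When the fold change also had to reach 2 or 0.5, SNAI2 was still called, beside 2.51% of all genes, 0.447% higher and 2.07% lower. Log2 fold changes were positive for 4 members and negative for 6, with a median of -0.04 against -0.01 over all genes tested. Groups did not overlap in CPM for 1 member that was higher (EPCAM) and 2 that were lower (CDH2 and SNAI2), while 31.7% of all genes tested had groups without overlap. In bulk samples, fewer cells carrying a transcript and less of it per cell cannot be told apart, and the p-values measure the spread between these 6 libraries, whose replicates the paper calls biological without saying whether they were transfected separately.

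**Figure D2:**
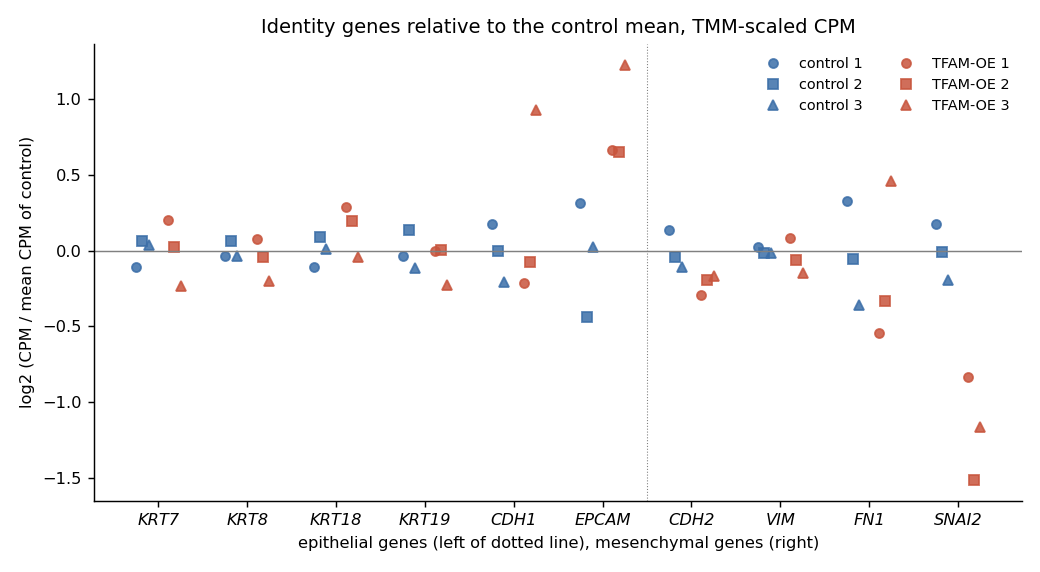
Log2 ratio of TMM-scaled CPM to the control mean for each library, with 6 epithelial genes left of the dotted line and 4 mesenchymal genes right of it. SNAI2 in the 3 libraries labelled TFAM-OE lies below every control library, the keratins and VIM stay near 0, and CDH1 and FN1 are highest in TFAM-OE replicate 3.

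SNAI2 encodes SLUG, a zinc-finger repressor of epithelial genes, and lies on the minus strand of chromosome 8 from 48917598 to 48921740 (GRCh38). It was counted with 334, 234 and 282 reads among the controls, against 157, 112 and 118 among the libraries labelled TFAM-OE. In CPM these were 9.95, 8.74 and 7.70 in the control against 4.93, 3.08 and 3.93. Every library labelled TFAM-OE was below every control library, and the gap between the groups was wider than the spread inside either. The control mean was 8.79 ± 1.13 CPM, against 3.98 ± 0.923 CPM in the libraries labelled TFAM-OE (SD, n = 3 each). The fold change was 0.452 with a 95% interval from 0.336 to 0.608 (log2 fold change -1.15, standard error 0.19, adjusted p = 0.00773, edgeR). The call was lost without control replicate 1, where the log2 fold change was -1.04 and the adjusted p 0.053, while it held without each of the other 5 libraries.

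KRT7, a type II keratin of simple and glandular epithelia, had 1315, 1433 and 1379 FPKM in the control libraries and 1491, 1365 and 1220 FPKM in the libraries labelled TFAM-OE. Its fold change was 1.01 (95% interval 0.827 to 1.23, adjusted p = 0.970, edgeR), and its sign turned negative under scaling by library size alone (log2 fold change -0.017), without control replicate 1 (-0.035) and without TFAM-OE replicate 1 (-0.096). KRT8, the type II partner of KRT18, had 717, 743 and 681 FPKM in the control and 708, 678 and 648 FPKM in the libraries labelled TFAM-OE. KRT18, the type I partner of KRT8, had 473, 523 and 488 FPKM in the control and 567, 552 and 501 FPKM in the libraries labelled TFAM-OE. For both genes the groups overlapped, with fold changes of 0.968 for KRT8 (95% interval 0.821 to 1.14) and 1.11 for KRT18 (95% interval 0.932 to 1.33). KRT19, the smallest type I keratin, ranged from 80.0 to 98.2 FPKM over the 6 libraries, with a fold change of 0.951 (95% interval 0.807 to 1.12). The log2 fold changes of KRT8 and KRT19 turned positive without TFAM-OE replicate 3 (0.029 and 0.0056), and that of KRT19 also without control replicate 2 (0.0065). The intervals of the 4 keratins leave room for changes of up to 1.33-fold upward and 0.807-fold downward.

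Ratios of keratin levels inside a library do not depend on the scaling between libraries. KRT8 over KRT18 was 1.52, 1.42 and 1.40 in the control libraries and 1.25, 1.23 and 1.29 in the libraries labelled TFAM-OE, a ratio added after the values were seen. The groups did not overlap, and the mean ratio in the libraries labelled TFAM-OE was 0.870 times the control mean, with values from 0.856 to 0.892 when each library was left out in turn. The sum of both type II members over the sum of both type I members was 3.61, 3.50 and 3.62 in the control and 3.38, 3.19 and 3.22 in the libraries labelled TFAM-OE, again without overlap. With the keratins of the list added, chiefly KRT81, the type II to type I ratio had a control mean of 6.51 ± 0.245, against 6.49 ± 0.125 for the libraries labelled TFAM-OE (SD, n = 3 each), and the groups overlapped. The ratios are given without a test, and an exact two-sided permutation test of 3 libraries against 3 could not give a p below 0.1.

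The position of the keratin genes limits these readings. KRT8 (chromosome 12, minus strand, 52897187 to 52949954) and KRT18 (plus strand, 52948871 to 52952906) overlap by 1084 bases on opposite strands, and it is not given whether the reads were counted by strand. KRT7 (chromosome 12, plus strand, 52232520 to 52252186) overlaps KRT86 by 2887 bases on its own strand and KRT87P by 1721 bases on the other. Reads of the 11 KRT8 pseudogenes in the table came to between 0.331% and 0.652% of the KRT8 reads of a library, and those of 14 KRT18 pseudogenes to between 0.0221% and 0.0790% of the KRT18 reads. The pseudogene reads of KRT8 were 398, 324 and 368 in the control and 208, 259 and 209 in the libraries labelled TFAM-OE.

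The other keratins of the list were mostly silent, with 6 of 16 genes tested, 0 higher and 0 lower (edgeR), 2 higher at an unadjusted p below 0.05, 1 higher by the exact test, 0 by DESeq2 and limma-voom, and a median log2 fold change of 0.24. The hair keratin KRT81 was the most abundant of the 45 keratin genes of the FPKM table, at 1977 FPKM, above KRT7. It had 3533, 4544 and 4409 CPM in the control and 5259, 5232 and 4127 CPM in the libraries labelled TFAM-OE, which overlapped, with a fold change of 1.17 (95% interval 0.943 to 1.45). KRT81 and its neighbour KRT86 (104 FPKM) are close copies, so the division of reads between them is uncertain. The basal keratins KRT5 and KRT14 were at most at 0.1 FPKM in every library. Of the linkers that tie filaments to junctions and to the membrane, 6 of 6 were tested, 0 passed in either direction (edgeR), 2 were lower at an unadjusted p below 0.05, 1 by the exact test and 0 by DESeq2 and limma-voom. The most abundant linker was PLEC, the crosslinker plectin, at 73.0 FPKM and a log2 fold change of -0.07 (standard error 0.11), which turned positive without TFAM-OE replicate 3 and with an offset for gene length.

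CDH1, the E-cadherin of epithelial junctions (chromosome 16, plus strand, 68737292 to 68835537), was counted with 166, 117 and 139 reads among the controls, against 120, 151 and 249 among the libraries labelled TFAM-OE. The high value belonged to TFAM-OE replicate 3 alone, at 8.30 CPM, while the other 5 libraries lay between 3.77 and 4.94 CPM. The fold change of CDH1 was 1.23 (95% interval 0.799 to 1.91, adjusted p = 0.539, edgeR), whereas its log2 fold change became -0.13 when TFAM-OE replicate 3 was left out. CDH2, the N-cadherin of mesenchymal and neural cells (chromosome 18, minus strand, 27932879 to 28177946), had 55.7, 49.1 and 47.1 CPM in the control and 41.4, 44.2 and 45.0 CPM in the libraries labelled TFAM-OE. In CPM every library labelled TFAM-OE was below every control library, although the lowest control was only slightly above the highest of them. In FPKM the groups of CDH2 overlapped, with 8.82 in control replicate 3 and 8.99 in TFAM-OE replicate 3. The fold change of 0.860 (95% interval 0.732 to 1.01, adjusted p = 0.222, edgeR) did not pass. The ratio of CDH2 to CDH1 FPKM was 12.6, 12.5 and 13.8 in the control and 12.2, 11.8 and 6.07 in the libraries labelled TFAM-OE, so CDH2 was the predominant cadherin of the pair in each library and the groups did not overlap. The mean ratio was 0.774 times that of the control, and 0.926 times without TFAM-OE replicate 3.

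EPCAM, a homophilic adhesion molecule of simple epithelia (chromosome 2, plus strand, 47345158 to 47387601), was counted with 19, 9 and 17 reads among the controls, against 23, 26 and 32 among the libraries labelled TFAM-OE. At this depth a library held few EPCAM reads, yet the scaled groups did not overlap, at 0.566, 0.336 and 0.464 CPM in the control against 0.722, 0.715 and 1.07 CPM. The fold change was 1.79 with a 95% interval from 1.10 to 2.93, and the adjusted p was 0.131 (edgeR), so EPCAM did not pass over all genes tested.

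**Figure D3:**
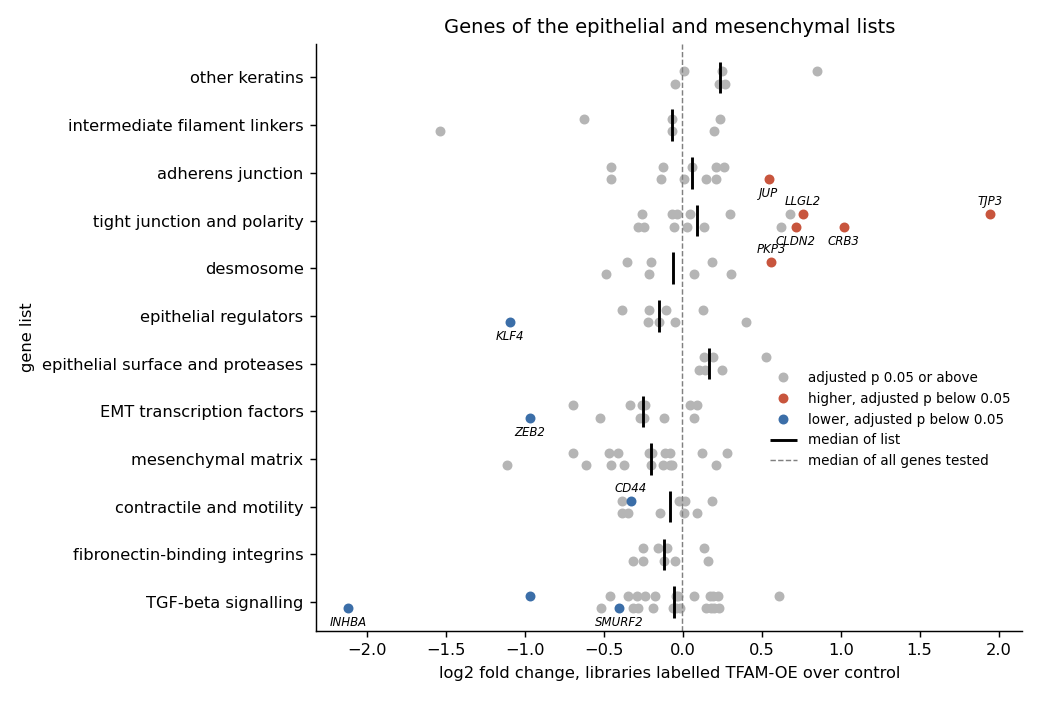
Log2 fold change of each tested gene of 12 lists, libraries labelled TFAM-OE over control, with the median of each list as a black line and the median of all genes tested as a dashed line. Colored points, most of them named, have an adjusted p below 0.05, and the 6 higher ones all belong to the 3 junction lists.

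Around the cadherins, genes of cell junctions were read from 3 lists. Of 11 adherens junction genes tested 1 rose and 0 fell (median log2 fold change 0.06), of 16 tight junction and polarity genes 4 rose and 0 fell (median 0.09), and of 8 desmosome genes 1 rose and 0 fell (median -0.06). At an unadjusted p below 0.05 the lower counts of the lists were 1, 1 and 0. DESeq2 and the exact test each called 1 adherens junction gene lower and limma-voom 0, and none of the 3 tools called a gene of the other two lists lower. Together, in a grouping made after the values were seen, 6 of 35 junction genes (17.1%) were called higher, beside 3.48% of all genes tested, while the median log2 fold change of the 35 was 0.06. The groups did not overlap for 12 of the 35 that were higher and 3 that were lower, where 15.8% of all genes tested were without overlap in each direction.

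JUP, plakoglobin, which links cadherins to filaments in adherens junctions and desmosomes, had 81.7, 77.9 and 71.1 CPM in the control and 104, 110 and 123 CPM in the libraries labelled TFAM-OE, a fold change of 1.46 (95% interval 1.24 to 1.71, adjusted p = 0.0136, edgeR). PKP3, the desmosomal plakophilin, had 38.8, 51.4 and 54.7 CPM in the control and 78.9, 70.7 and 64.0 CPM in the libraries labelled TFAM-OE, a fold change of 1.47 (95% interval 1.19 to 1.83, adjusted p = 0.0398, edgeR). LLGL2, a polarity protein of the basolateral membrane, had 13.8, 16.8 and 18.9 CPM in the control and 28.6, 29.3 and 26.0 CPM in the libraries labelled TFAM-OE, a fold change of 1.70 (95% interval 1.38 to 2.09, adjusted p = 0.0103, edgeR). For these 3 genes all libraries labelled TFAM-OE exceeded all control libraries. CRB3, the apical polarity protein crumbs, rose from 0.844 ± 0.215 to 1.74 ± 0.183 CPM (SD, n = 3 each; adjusted p = 0.0338, edgeR). CLDN2, a claudin that forms cation pores, rose from 6.83 ± 0.556 to 11.2 ± 2.73 CPM (SD, n = 3 each; adjusted p = 0.0416, edgeR). TJP3, a scaffold of tight junctions, rose from 0.143 ± 0.0511 to 0.575 ± 0.223 CPM (SD, n = 3 each; adjusted p = 0.0361, edgeR), a difference resting on few reads. The most abundant genes of the 3 lists did not pass, namely CTNNA1 (58.8 FPKM, log2 fold change 0.06), CLDN1 (35.0 FPKM, log2 fold change -0.25) and PERP (41.4 FPKM, log2 fold change -0.20).

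Which library was left out decided these calls. All 6 genes passed without TFAM-OE replicate 1 and without TFAM-OE replicate 3. Without control replicate 2 none of the 6 passed (edgeR, adjusted p from 0.0631 for LLGL2 to 0.130 for CRB3), and without TFAM-OE replicate 2 only TJP3 did (adjusted p = 0.0422). Without control replicate 1, JUP and LLGL2 passed (adjusted p = 0.0464 and 0.0473) and the other 4 had adjusted p-values from 0.135 to 0.171. Without TFAM-OE replicate 2 the adjusted p-values of the 5 that were lost ran from 0.0676 for LLGL2 to 0.142 for PKP3, and without control replicate 3 the calls of TJP3 and CLDN2 were lost (adjusted p = 0.0578 and 0.0971). The call of CLDN2 was also lost when scaled by library size alone and in limma fits on log2 FPKM with 0.1 or 1 added. TJP3 lost its call in the limma fit with 1 added. With the replicate numbers as a block none of the 6 passed (adjusted p from 0.0635 to 0.148, edgeR). The log2 fold changes stayed positive in the fits with a library left out, between 0.43 for PKP3 and 2.25 for TJP3.

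Since SNAI2 and ZEB2 proteins are known to bind the E-box CAGGTG, read on the other strand as CACCTG, these letters were searched on both strands of RefSeq promoter windows (GRCh38.p14) of 300 bases, 250 before and 50 after a start. The windows searched covered 4 of the 10 members (KRT8, CDH2, VIM and FN1, 5 windows), and 0 of these held a match. No window of KRT7, KRT18, KRT19, CDH1, EPCAM or SNAI2 was searched, so matches in their promoters were not tested. Of the 6 junction genes that rose, 4 had windows and 3 of them held a match, CRB3, JUP and TJP3, whereas CLDN2 held none and LLGL2 and PKP3 had no entry. Of the 6 list genes that fell, 5 had windows and 1 held a match, SMURF2, and matches were also found for S100A4 and ABCA3, which did not pass. Over all 35116 windows of this length 20.6% held a match, a share per window that cannot be set against a share of genes, since the 4 junction genes had 7 windows. The match nearest to the start is shown for each of the 3 junction genes, with the matching letters in capitals. The stretches are chr19:6464199-6464228 for CRB3 (plus strand), chr17:41786002-41786031 for JUP (minus strand) and chr19:3721718-3721747 for TJP3 (plus strand).
CRB3: agtgcgctctccCAGGTGagtgactaaact
JUP: cCACCTGccgagCAGGTGagcgcacggagt
TJP3: gaggaagaggggCAGGTGcagccgggagct
CRB3 held 5 matches in its window and JUP 2, both of which are in the stretch shown. A match describes the letters of the window and not binding, which was not measured here.

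VIM, the intermediate filament of mesenchymal cells (chromosome 10, plus strand, 17228241 to 17237593), had 885, 830 and 816 FPKM in the control libraries and 840, 789 and 793 FPKM in the libraries labelled TFAM-OE. The groups overlapped, and the fold change was 0.975 with a 95% interval from 0.833 to 1.14 (adjusted p = 0.855, edgeR). Reads assigned to the antisense gene VIM-AS1 came to between 11.02% and 11.89% of those of VIM in each library, and the strand used in counting is not given, so the division of these reads is uncertain. The ratio of VIM to KRT18 FPKM was 1.87, 1.59 and 1.67 in the control and 1.48, 1.43 and 1.58 in the libraries labelled TFAM-OE, 0.876 times as high on average, without overlap although the lowest control and the highest TFAM-OE value nearly met. The log2 fold change of VIM turned positive without TFAM-OE replicate 3 (0.022).

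FN1, the matrix glycoprotein fibronectin (chromosome 2, minus strand, 215360440 to 215436073), had 194, 149 and 121 CPM in the control libraries and 106, 123 and 212 CPM in the libraries labelled TFAM-OE. Control replicate 1 and TFAM-OE replicate 3 were the high libraries, and the groups overlapped over nearly their whole range. The fold change was 0.951 with a 95% interval from 0.647 to 1.40 (adjusted p = 0.886, edgeR), the widest interval among the abundant members. Its log2 fold change of -0.07 turned positive without control replicate 1 (0.13), without TFAM-OE replicate 1 (0.12) and without TFAM-OE replicate 2 (0.04).

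Across all genes, the deviation of TFAM-OE replicates 1 and 3 from their group mean went with gene length. The genes tested were divided by exonic length, which was known for 98.7% of them, into 4 classes of like size. In the longest class (over 7520 bases) the median log2 deviation from the group mean was -0.15 in TFAM-OE replicate 1 and 0.16 in TFAM-OE replicate 3, and in the shortest class it was 0.12 and -0.14. The deviations of the 3 control libraries and TFAM-OE replicate 2 stayed between -0.045 and 0.044 in each class. FN1, in the longest class with 17216 exonic bases, deviated by -0.41 and 0.60 in TFAM-OE replicates 1 and 3, and CDH1, in the next class with 6076 exonic bases, by -0.42 and 0.71, where the medians of its class were -0.011 and 0.022. VIM, of the same class, deviated by 0.13 and -0.11, and FN1 also deviated by 0.36 and -0.33 in control replicates 1 and 3, with the same signs as the medians of its class in these libraries (0.044 and -0.044). KRT7, in the second shortest class, deviated by 0.21 and -0.23, with the signs of its class (0.073 and -0.071). EPCAM, in the shortest class, deviated by -0.17 and 0.35, with signs opposite to those of its class. With an offset for gene length in the fit, added after this pattern was seen, SNAI2 had a log2 fold change of -1.17 (adjusted p = 0.00329, edgeR) and FN1 of -0.0045 with an adjusted p of 0.991, while CDH1 stayed at 0.31 with the offset against 0.30 without it. With TFAM-OE replicates 1 and 3 both left out, an alternative also added after the data were seen in which the lone library is assumed to vary like the controls, CDH1 had a log2 fold change of -0.065. The part of RNA integrity or fragment size in this pattern was not tested.

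**Figure D4:**
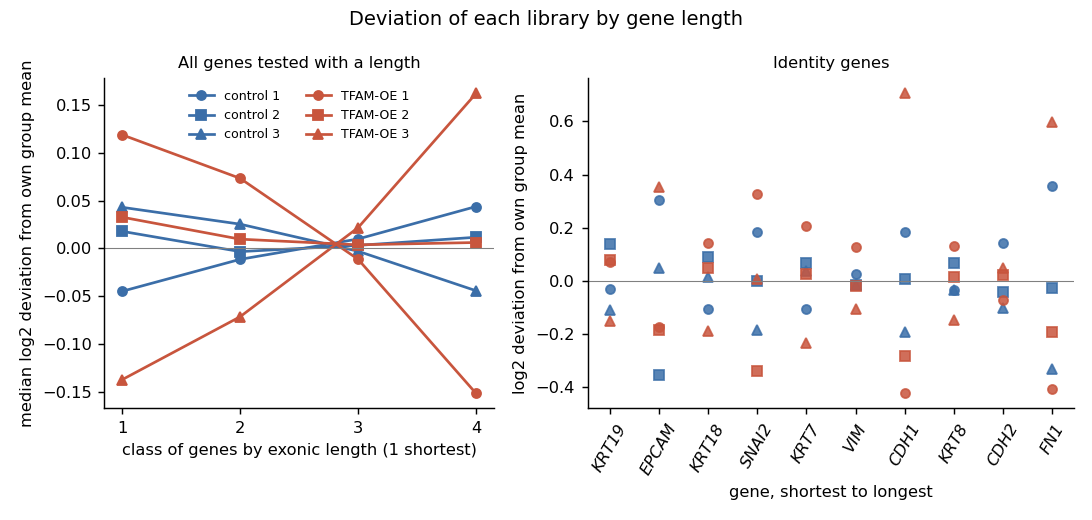
Left, median log2 deviation of each library from its own group mean in 4 classes of genes by exonic length. Right, the same deviation for the 10 genes, ordered from the shortest (KRT19) to the longest (FN1), with circles, squares and triangles for replicates 1, 2 and 3. TFAM-OE replicates 1 and 3 run in opposite directions with length, at 0.12 and -0.14 in the shortest class.

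The partners of the mesenchymal members were read from 3 further lists. Of 18 matrix genes tested 0 passed in either direction (edgeR), with 1 lower by DESeq2, 2 by the exact test, 0 by limma-voom, and a median log2 fold change of -0.20. At an unadjusted p below 0.05, 1 of the 18 was higher and 4 lower, beside 12.2% and 13.2% of all genes tested. The most abundant matrix gene was LOXL2, a lysyl oxidase that crosslinks collagen, at 88.7 FPKM and a fold change of 0.872 (95% interval 0.751 to 1.01). Of 10 contractile and motility genes tested 0 rose and 1 fell (edgeR), 10% lower beside 4.81% of all genes tested. At an unadjusted p below 0.05 there were 0 higher and 3 lower of the 10, beside 12.2% and 13.2% of all genes tested. The median log2 fold change of this list was -0.08. DESeq2 and the exact test each called 2 lower, limma-voom called 1, and these tools called 0 higher. The gene that fell was CD44, the hyaluronan receptor, from 949 ± 26.8 to 755 ± 3.05 CPM (SD, n = 3 each; fold change 0.796, adjusted p = 0.0494, edgeR). The adjusted p of CD44 was 0.236 without TFAM-OE replicate 2, and 0.184, 0.196, 0.0895 and 0.0623 without control replicates 1, 2 and 3 and TFAM-OE replicate 1, and its call was also lost under RLE and upper-quartile scaling, with the length offset (adjusted p = 0.124) and with the replicate block (adjusted p = 0.206). S100A4, the most abundant gene of that list at 483 FPKM, had a log2 fold change of 0.19. Of 9 genes tested for receptors that bind fibronectin, integrins and the syndecan SDC4, 0 passed (edgeR), with 1 lower at an unadjusted p below 0.05, 0 by DESeq2, the exact test and limma-voom, and a median log2 fold change of -0.12. ITGB1, the most abundant of these at 230 FPKM, had 1152, 1063 and 1020 CPM in the control and 810, 1012 and 1307 CPM in the libraries labelled TFAM-OE, with TFAM-OE replicates 1 and 3 the extremes as for FN1.

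Besides SNAI2, 12 transcription factors of epithelial-mesenchymal transition were tested, of which 0 rose and 1 fell (edgeR), 8.33% lower beside 4.81% of all genes tested. DESeq2 called 0 higher and 2 lower, and the exact test and limma-voom each 0 higher and 1 lower. At an unadjusted p below 0.05 there were 0 higher and 4 lower of the 12, where 12.2% of all genes tested were higher and 13.2% lower, and the median log2 fold change was -0.25. Groups did not overlap for 5 of the 12 that were lower and 0 that were higher, where 15.8% of all genes tested were without overlap in each direction. ZEB2, a zinc-finger repressor of CDH1, had 15.34, 13.52 and 11.02 CPM in the control libraries and 5.46, 6.52 and 8.43 CPM in the libraries labelled TFAM-OE. All 3 libraries labelled TFAM-OE were below the lowest control. Its fold change was 0.512 (95% interval 0.383 to 0.684, adjusted p = 0.0152, edgeR), and the call was lost without control replicate 1 (adjusted p = 0.0915), control replicate 2 (adjusted p = 0.0808) or TFAM-OE replicate 2 (adjusted p = 0.0827), and with the replicate numbers as a block (adjusted p = 0.0885). SNAI1 (4.44 FPKM, log2 fold change -0.12) and ZEB1 (1.50 FPKM, log2 fold change -0.70, adjusted p = 0.115, edgeR) did not pass. With all genes kept in the fit, ZEB1 did pass (adjusted p = 0.00086, edgeR) and SNAI1 did not (adjusted p = 0.742, edgeR). SNAI3 had too few reads to be tested with the filter on, with 4, 2 and 2 reads among the controls, against 15, 7 and 8 among the libraries labelled TFAM-OE (adjusted p = 0.0723 with all genes kept, edgeR). These 3 genes were named after their values were seen. TCF3, the most abundant factor of the list at 13.8 FPKM, had a log2 fold change of 0.07.

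Of 9 regulators of epithelial genes tested 0 rose and 1 fell (edgeR), 11.1% lower beside 4.81% of all genes, with 1 higher and 2 lower at an unadjusted p below 0.05, 1 higher and 1 lower by DESeq2 and by the exact test, 0 and 1 by limma-voom, and a median log2 fold change of -0.15. KLF4, a factor of epithelial differentiation, had 26.8, 21.4 and 15.4 CPM in the control and 10.7, 9.35 and 9.76 CPM in the libraries labelled TFAM-OE. The control libraries were spread widely, but each exceeded every library labelled TFAM-OE. The fold change of KLF4 was 0.469 (95% interval 0.350 to 0.628, adjusted p = 0.00923, edgeR), and the call was lost without control replicate 2 (adjusted p = 0.0583) or TFAM-OE replicate 2 (adjusted p = 0.0556). FOXA2, the most abundant of these regulators at 17.4 FPKM, had a log2 fold change of -0.22. The splicing regulators ESRP1 and ESRP2, named after their values were seen, had too few reads to be tested. Of 6 epithelial surface and protease genes tested 0 passed (edgeR, also at an unadjusted p below 0.05, and by DESeq2, the exact test and limma-voom), and SPINT2, a membrane protease inhibitor and the most abundant at 250 FPKM, had a log2 fold change of 0.14.

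Genes of TGF-beta signalling, a classical inducer of SNAI2 and FN1, gave 0 higher and 3 lower (11.5%, beside 4.81% of all genes) among 26 tested (edgeR). DESeq2 and the exact test each called 1 higher and 4 lower, and the median log2 fold change was -0.05. At an unadjusted p below 0.05, 2 of the 26 were higher and 7 lower, beside 12.2% and 13.2% of all genes tested. INHBA, the activin A subunit, had 6.91, 4.52 and 3.14 CPM in the control and 0.847, 1.35 and 1.13 CPM in the libraries labelled TFAM-OE. Its fold change was 0.230 (95% interval 0.143 to 0.371, adjusted p = 0.00392, edgeR), and it passed without each library in turn. SMURF2, a ubiquitin ligase that turns over receptors and SMADs, fell from 38.8 ± 0.929 to 29.4 ± 2.10 CPM (SD, n = 3 each; adjusted p = 0.0426, edgeR). Its call held only without TFAM-OE replicate 1 or 3 among the fits with a library left out, and the adjusted p was 0.162, 0.154 and 0.0847 without control replicates 1, 2 and 3 and 0.147 without TFAM-OE replicate 2, 0.054 with the length offset and 0.156 with the replicate block.

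**Figure D5:**
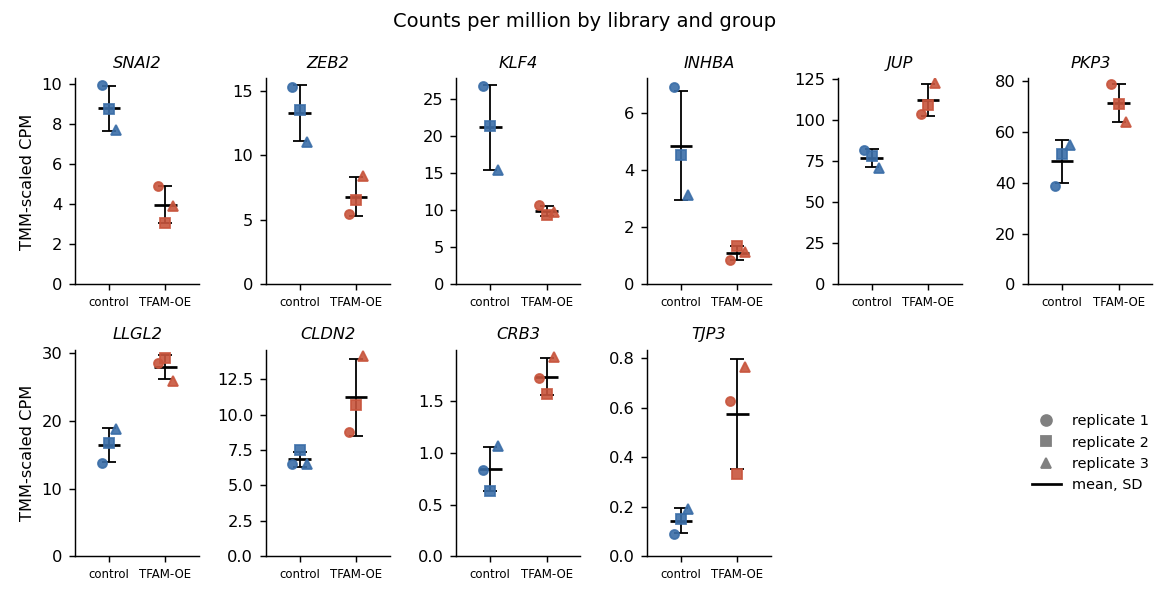
TMM-scaled CPM of SNAI2 and of 9 list genes with an adjusted p below 0.05, with 1 point per library and lines for the mean and SD of 3 libraries in each group. SNAI2, ZEB2, KLF4 and INHBA are lower and the 6 junction genes higher in all 3 libraries labelled TFAM-OE.

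Over the 12 lists together, 137 of 170 genes were tested, 6 were higher (4.38%) and 6 lower (4.38%), beside 3.48% and 4.81% over all genes tested, and their log2 fold changes had a median of -0.07. The share of these genes that passed is thus close to the background in both directions.

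The genes whose pattern over the 6 libraries was most like that of a member were sought among 9403 genes with a mean of at least 10 CPM, by the root-mean-square difference of centred log2 CPM. SNAI2 was nearest to CPT1B (0.0867), the muscle-type carnitine palmitoyltransferase, and GATA6 (0.138), a factor of endoderm. FN1 was nearest to ITGB3 (0.0916), the beta chain of an integrin that binds fibronectin, and to SOS2 (0.0944). CDH1 was nearest to SHTN1 (0.127) and TET3 (0.129), EPCAM to ACO1 (0.165) and HMGB3 (0.192), and CDH2 to ABHD13 (0.0207) and NANP (0.0271). Among the filament genes KRT7 was nearest to PREB (0.0135) and NR1H2 (0.0211), KRT8 to USP20 (0.0120) and NFYC (0.0184), and KRT18 to CTBP1 (0.0160) and ZFPL1 (0.0178). KRT19 was nearest to EXOSC6 (0.0361) and IRF2BP1 (0.0364), and VIM to LSM1 (0.0175) and EDEM2 (0.0234).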

How the data were processed

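After trimming with the FASTX-Toolkit, the authors aligned reads to GRCh38 with TopHat2, and reads mapping to a single place entered the tables. The submitters' processing notes also name bcl2fastq and edgeR. Per gene and library, the authors deposited a raw count and an FPKM value. The library kit kept strand, but the program, annotation and strand setting of the counting were not given in the sources used here. Unused value columns numbered 0.

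Libraries were grouped by their labels. Of 29845 genes, filterByExpr kept 16555, and edgeR (4.0.16, under R 4.3.3) fitted these with TMM factors and a two-sided quasi-likelihood test, adjusting p by Benjamini-Hochberg over all of them. The deposited FPKM values were used as given for levels and ratios. Gene positions and exonic lengths are from GENCODE 44, which matched 97.2% of the genes. Between 16218 and 16891 genes had at least 10 reads in a library. The gene fit was first tried on simulated data, and intervals cover the spread between libraries only. Members and lists were chosen with earlier results of these data known. Named were all members, TFAM, the 2 genes most like each member, each list's gene of highest FPKM, and in each direction up to 5 list genes past the threshold whose groups do not overlap; a gene the rule names may be left out here. Alternatives used limma (3.58.1) and DESeq2 (1.42.0). Python (3.11.15) and matplotlib (3.10.9) were used for motifs and figures.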

Additional observations from a re-analysis of the deposited data

How the results depend on the processing

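SNAI2 was past the threshold in 19 of 20 settings, with log2 fold changes from -1.50 to -0.81, and without control replicate 1 it was not. The number of genes called moved most. All genes with a read gave 1034 higher and 1485 lower, with 10 and 15 in the lists. The exact test gave 980 and 1236, with 11 and 12 in the lists, and DESeq2 gave 934 and 1106, with 9 and 11 in the lists. The fold limit left 74 and 342. The added length offset gave 911 and 1040, with 10 and 8 in the lists, and leaving out TFAM-OE replicates 1 and 3 together gave 282 and 457, with 3 higher in the lists. Leaving out each library in turn gave from 66 to 1428 higher and 240 to 1786 lower, 0 to 1 members lower, and 0 to 11 higher and 2 to 23 lower in the lists. The replicate block gave 74 higher and 285 lower, with 0 and 3 in the lists, and SNAI2 still passed (adjusted p = 0.0299, edgeR). Deviations of same-numbered libraries correlated at -0.22, 0.01 and -0.27 across genes, and no library was most like its own number. Whether the numbers pair the libraries is not known. These values cannot decide it, since TFAM-OE replicates 1 and 3 also deviated with gene length.

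In some settings 6 members changed sign, none of them past the threshold. The log2 fold change of KRT7 was -0.017 under library size alone, -0.022 on FPKM with 0.1 or 1 added, -0.0079 with the length offset, and from -0.096 to 0.13 with a library left out (-0.035 without control replicate 1 and -0.096 without TFAM-OE replicate 1). With a library left out, FN1 ran from -0.43 to 0.13, CDH1 (0.30 with all libraries) from -0.13 to 0.50, KRT8 from -0.11 to 0.029, KRT19 from -0.12 to 0.0065 and VIM from -0.10 to 0.022. FN1 was at 0.13, 0.12 and 0.044 without control replicate 1, TFAM-OE replicate 1 and TFAM-OE replicate 2. Without TFAM-OE replicate 3, KRT8 was at 0.029, VIM at 0.022, KRT19 at 0.0056 and CDH1 at -0.13. KRT19 was at 0.0065 without control replicate 2, and without TFAM-OE replicates 1 and 3 KRT19 was at 0.0084 and CDH1 at -0.065. The cause of these differences between settings was not tested.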

Other observations

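Lineage markers other than the identity genes also differed in places. LAMP3, a lysosomal membrane protein used as a marker of alveolar type 2 and dendritic cells, had 7.21, 6.54 and 5.21 CPM in the control libraries and 1.00, 0.660 and 0.866 CPM in the libraries labelled TFAM-OE. Its fold change was 0.133 (95% interval 0.0953 to 0.187, adjusted p = 6.7e-05, edgeR), and it passed without each library in turn, while the other 2 tested genes of the same list, ABCA3 and NAPSA, had log2 fold changes of 0.02 and -0.71 (adjusted p = 0.147 for NAPSA, edgeR). The CPM of LAMP3 and of NAPSA were lower in every library labelled TFAM-OE than in any control, and NAPSA was named after its values were seen. CD68, a lysosomal protein that marks macrophages, was lower, from 3.25 ± 0.357 to 1.39 ± 0.412 CPM (SD, n = 3 each; adjusted p = 0.0152, edgeR), with an adjusted p of 0.0621 without control replicate 1 and 0.0828 without control replicate 2. PTPRC, which marks all leukocytes, had at most 1 read in a library.

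MUC5AC, a gel-forming mucin of airway goblet cells, rose from 6.60 ± 0.789 to 13.4 ± 4.82 CPM (SD, n = 3 each; adjusted p = 0.0279, edgeR), with an adjusted p of 0.143, 0.126 and 0.0735 without control replicate 1, control replicate 2 and TFAM-OE replicate 2, and its call was also lost when scaled by library size alone. TP63, of the same list, had a log2 fold change of -0.83 (adjusted p = 0.0970, edgeR) and did not pass, and its CPM was lower in every library labelled TFAM-OE than in any control. With all genes kept in the fit, TP63 did pass (adjusted p = 0.0275, edgeR). THY1, of the fibroblast list, rose from 9.19 ± 1.04 to 13.8 ± 1.98 CPM (SD, n = 3 each; adjusted p = 0.0415, edgeR), and among the fits with a library left out it passed only without TFAM-OE replicate 3 (adjusted p = 0.0114), with an adjusted p of 0.175, 0.145 and 0.0516 without control replicates 1, 2 and 3 and of 0.0570 and 0.116 without TFAM-OE replicates 1 and 2, and of 0.155 with the replicate block. COL1A1, of the same list, had a log2 fold change of -0.37 and did not pass (adjusted p = 0.321, edgeR). PDGFRB had 13, 15 and 6 reads among the controls, against 4, 1 and 2 among the libraries labelled TFAM-OE, and was tested only in the fit with all genes kept (adjusted p = 0.0145, edgeR). TP63, COL1A1 and PDGFRB were named after their values were seen. No endothelial marker had enough reads to be tested, and KDR was the highest at 0.020 FPKM.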
